A study of Arabidopsis thaliana with 8 samples.

Results

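N-hydroxypipecolic acid (NHP) is the mobile signal of systemic acquired resistance, and the genes described here are the 4 that encode the known enzymes of its formation and its conjugation in Arabidopsis. They were chosen by gene identifier as ALD1 (AT2G13810), SARD4 (AT5G52810), FMO1 (AT1G19250) and UGT76B1 (AT3G11340). All 4 were found among the 34133 genes of the deposited tables, and all 4 had a value in each of the 4 groups. Each genotype, WT or ros1, was grown without herbicide (WT control, ros1 control) and with it (WT IM, ros1 IM), and each of these 4 groups held 2 RNA-seq libraries. WT was Col-0, and ros1 was the SALK_064264 line in the same background, with its T-DNA in the 5′-UTR of ROS1. This gene encodes a DNA glycosylase active in DNA demethylation. The authors describe this single allele as hypomorphic. Plants were 3 weeks old, and IM stands for imazethapyr, an inhibitor of acetolactate synthase, at 10.6 g/ha with 0.5% (v/v) of the adjuvant Dash, sampled after 48 h as entire rosettes with 2 plants in each library. The control plants were labelled both mock and non-treated, so that effects of the adjuvant and of the herbicide cannot be told apart. The tables gave each gene 1 FPKM value (fragments per kilobase of transcript, scaled by sequencing depth) for each group, pooled by the authors over the 2 libraries. No spread between libraries could therefore be had, no test was run, and every difference below is a difference between pooled values.

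In the pathway, ALD1 removes the amino group of lysine, and the product cyclises to dehydropipecolic acid. SARD4 is a reductase that turns this intermediate into pipecolic acid, FMO1 is a monooxygenase that hydroxylates pipecolic acid to NHP, and UGT76B1 is a glycosyltransferase that attaches glucose to NHP and also to salicylic acid. In leaves the pathway is known for its activation after pathogen attack, where it acts together with salicylic acid, under the transcription factors SARD1 and CBP60g.

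The genes lay on different chromosomes of the TAIR10.1 assembly. ALD1 was annotated at chr2:5768417-5772266 on the plus strand with 10 exons, SARD4 at chr5:21399331-21400686 on the plus strand with 1 exon, FMO1 at chr1:6650476-6653195 on the minus strand with 5 exons, and UGT76B1 at chr3:3556554-3558361 on the plus strand with 2 exons. The 250 bases before each RefSeq start are printed because ALD1, FMO1 and UGT76B1 had similar patterns across the groups and SARD4 did not. They are chr2:5768167-5768416 for ALD1, chr1:6653196-6653445 on the minus strand for FMO1, chr3:3556304-3556553 for UGT76B1 and chr5:21399081-21399330 for SARD4. Capitals mark matches on either strand to GAAATTT, a motif known to be bound by SARD1 and CBP60g, or to TTGAC, the core of the W box bound by WRKY factors.
ALD1: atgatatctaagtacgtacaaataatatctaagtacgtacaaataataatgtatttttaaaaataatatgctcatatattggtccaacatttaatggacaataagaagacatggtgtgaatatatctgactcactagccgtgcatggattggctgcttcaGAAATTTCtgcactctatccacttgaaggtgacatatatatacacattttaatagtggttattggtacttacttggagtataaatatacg
FMO1: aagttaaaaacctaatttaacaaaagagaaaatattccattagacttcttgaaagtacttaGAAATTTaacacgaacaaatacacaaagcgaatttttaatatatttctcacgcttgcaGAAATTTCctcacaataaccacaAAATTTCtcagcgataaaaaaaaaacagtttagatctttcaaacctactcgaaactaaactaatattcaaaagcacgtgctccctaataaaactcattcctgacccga
UGT76B1: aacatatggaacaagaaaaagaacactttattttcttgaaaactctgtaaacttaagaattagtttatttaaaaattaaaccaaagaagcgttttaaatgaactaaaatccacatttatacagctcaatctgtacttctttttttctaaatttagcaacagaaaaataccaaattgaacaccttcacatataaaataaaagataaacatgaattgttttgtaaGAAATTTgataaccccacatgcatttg
SARD4: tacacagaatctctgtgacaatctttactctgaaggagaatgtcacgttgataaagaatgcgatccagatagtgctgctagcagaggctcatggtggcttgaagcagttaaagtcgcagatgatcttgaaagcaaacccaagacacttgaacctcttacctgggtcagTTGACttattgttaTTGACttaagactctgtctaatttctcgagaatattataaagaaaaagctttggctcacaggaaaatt

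GAAATTT was found in the promoters of ALD1, FMO1 and UGT76B1, and not in that of SARD4. The window searched ran from 250 bases before to 50 bases after the start, and 14.2% of 27444 promoters of protein-coding genes held this motif in the same window. ALD1 held it on both strands in overlapping positions between -90 and -83, as did FMO1 between -131 and -124, with further matches in FMO1 from -189 to -183 and from -108 to -102. In UGT76B1 the single match ran from -27 to -21. TTGAC, present in 50.5% of promoters, was found only in SARD4 among the 4 windows, from -82 to -78 and from -68 to -64. TGACG, the core motif of TGA factors, was in 23.1% of promoters and in none of the 4, and in 8.79% of promoters a TTGAC match shared bases with a TGACG match. A match is only a description of the letters in these windows. The SARD4 window lay inside the upstream gene AT5G52800, whose annotated end overlaps SARD4 by 89 bases on the same strand.

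ALD1, the first enzyme, stood at 0.0214 FPKM in WT control, 3.12 in WT IM, 0.718 in ros1 control and 20.3 in ros1 IM. The order from lowest to highest was thus WT control, ros1 control, WT IM and ros1 IM. FMO1, the hydroxylase that makes NHP, had the same order, at 0.155 FPKM in WT control, 4.56 in ros1 control, 20.7 in WT IM and 150 in ros1 IM. UGT76B1, which conjugates NHP, was at 0.0222 FPKM in WT control, 5.73 in WT IM, 6.49 in ros1 control and 59.3 in ros1 IM. For this gene the middle groups changed places, and its level in untreated ros1 was close to that in treated WT. SARD4, the reductase, showed another pattern, at 40.0 FPKM in WT control, 39.3 in WT IM, 2.76 in ros1 control and 7.0 in ros1 IM. It was the one pathway gene with its highest level in untreated WT plants, and both ros1 groups lay below both WT groups.

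**Figure D1:**
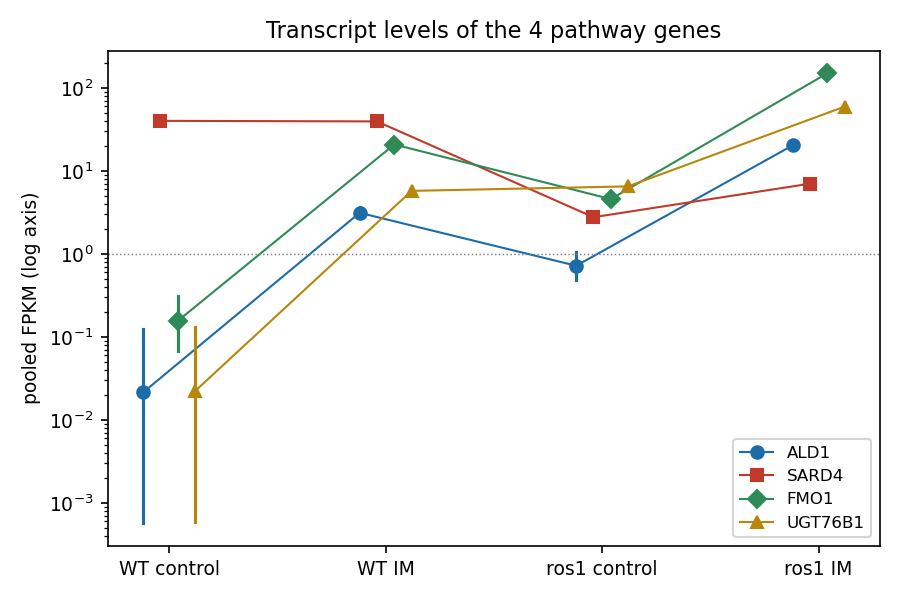
Pooled FPKM (log axis) of ALD1, SARD4, FMO1 and UGT76B1 in the 4 groups, with lines joining the values of a gene; vertical bars are exact Poisson intervals at 95% for the genes and groups whose fragments could be counted, and the dotted line marks an FPKM of 1. ALD1, FMO1 and UGT76B1 stand lowest in WT control and highest in ros1 IM, whereas SARD4 stands at 40.0 without herbicide in WT and at 2.76 in ros1.

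The lowest of these values rest on single fragments. In WT control, the FPKM of single-transcript genes multiplied by their effective length stood in steps, and 97.9% of 860 low values were whole numbers of fragments within 1%. On that scale the pooled WT control value of ALD1 was worth 1 fragment, that of UGT76B1 1 fragment and that of FMO1 8 fragments over both libraries. The exact Poisson intervals, which cover counting error only, were 0.00057 to 0.125 FPKM for ALD1, 0.000591 to 0.130 for UGT76B1 and 0.0672 to 0.306 for FMO1. In WT IM the same calculation gave 175 fragments for ALD1, 310 for UGT76B1 and 1346 for FMO1, and in ros1 control it gave 27, 233 and 196, respectively. Transcripts of these 3 genes were therefore at or near the detection limit in untreated WT rosettes and well above it in the other groups. The ros1 IM values could not be placed on this scale, since low values of that group were not in the tables used, and SARD4 was left out because its locus was merged with AT5G52800 in the files.

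WT IM was set against WT control to describe the response of the pathway to the herbicide in WT. A gene counted as higher or lower where the ratio of (FPKM + 0.1) was at least 2-fold and the FPKM reached 1 in either group. By this rule 3 of the 4 genes were higher and none was lower, where 14.4% of all 18829 genes that reached 1 FPKM were higher and 18.4% were lower. The 3, ALD1, FMO1 and UGT76B1, were below 1 FPKM in WT control and passed the floor only through WT IM. They could therefore not have counted as lower. FMO1 had a log2 ratio of 6.35, and 53 genes including FMO1 itself had at least this log2 ratio. The log2 ratio was 5.58 for UGT76B1 and 4.73 for ALD1, and 0.515% and 0.956% of genes, respectively, had ratios as high. Without the pseudocount, the ratio was 146-fold for ALD1, with a counting interval of 24.6 to 5506. By this measure it was 133-fold for FMO1, with an interval of 67.4 to 309, and 258-fold for UGT76B1, with an interval of 43.7 to 9729. The order of these 3 genes thus depended on the pseudocount, and the intervals overlap. SARD4 had a log2 ratio of -0.02, next to the median of 0.01 over all genes, so the reductase was the pathway member whose level did not differ between treated and untreated WT plants beyond 1.02-fold.

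In ros1, all 4 genes were at least 2-fold higher in ros1 IM than in ros1 control, where 20.5% of 16403 genes were higher and 26.4% were lower. ALD1, at 0.718 FPKM in ros1 control, passed the floor only through ros1 IM. This background covers only the genes given a ros1 IM value, which the tables list mainly where the authors' own comparison had passed. FMO1 had a log2 ratio of 5.0 and ALD1 one of 4.64, and 1.48% and 1.85% of genes, respectively, had ratios as high. The log2 ratio of UGT76B1 was 3.17, from a control level that was already above that of FMO1. SARD4 had a log2 ratio of 1.31, and its 7.0 FPKM in ros1 IM remained below both WT groups. The median log2 ratio over all genes was 0.12 in this comparison.

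The genotypes were first compared without herbicide. UGT76B1 and FMO1 were higher in ros1 control than in WT control, SARD4 was lower, and ALD1 did not reach 1 FPKM in either group, against 6.30% of 18799 genes higher and 10.3% lower. Both UGT76B1 and FMO1 passed the floor only through ros1 control, so neither could have counted as lower. UGT76B1 had a log2 ratio of 5.75, which 30 genes, UGT76B1 included, reached, and FMO1 had one of 4.19. Without the pseudocount these ratios were 292-fold, with a counting interval of 49.5 to 11040, and 29.4-fold, with an interval of 14.6 to 68.7. ALD1 stood 33.5-fold higher by the same measure, with an interval of 5.32 to 1321. SARD4 was 14.5-fold lower in ros1 control, at a log2 ratio of -3.81, and 1.63% of genes had a ratio as low. The genes of hydroxylation and conjugation thus stood higher in untreated ros1 and the reductase gene lower. ALD1, the gene of the first step, also stood higher there, on 27 fragments against 1. In entire rosettes, fewer cells of a type and less RNA per cell cannot be told apart.

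After the herbicide, ros1 IM exceeded WT IM in ALD1, FMO1 and UGT76B1 and stood below it in SARD4, where 13.1% of 16329 genes were higher and 22.6% were lower. Without the pseudocount, the ratios were 6.49-fold for ALD1, 7.22-fold for FMO1 and 10.4-fold for UGT76B1. SARD4 was 5.62-fold lower, and 7.15% of genes had a log2 ratio as low as its -2.47. This comparison shares its groups with those above, so its values follow from them in part. Between the middle groups, WT IM stood 4.34-fold above ros1 control for ALD1, with a counting interval of 2.85 to 6.71, and 4.54-fold for FMO1, with an interval of 3.92 to 5.32. For UGT76B1 the ratio was 0.883, with an interval of 0.742 to 1.05, so its order in these groups was within counting error.

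**Figure D2:**
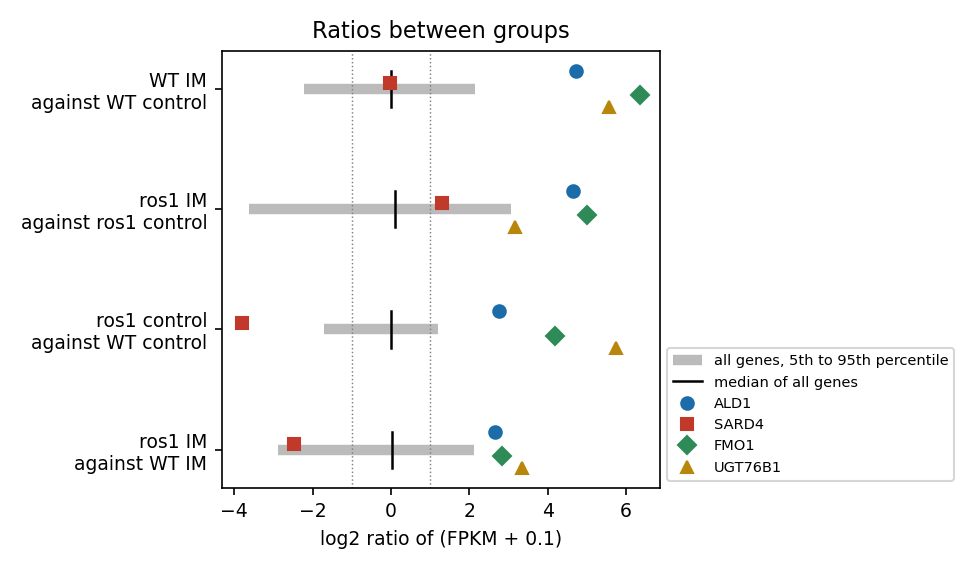
Log2 ratio of (FPKM + 0.1) of the 4 genes (symbols) in each comparison, over the range from the 5th to the 95th percentile of all genes that reached 1 FPKM (grey bars) with their median (black ticks); dotted lines mark 2-fold. ALD1, FMO1 and UGT76B1 lie to the right of every grey bar, and SARD4 lies to the left of it only in ros1 control against WT control, at -3.81.

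Whether the response to imazethapyr differed between the genotypes was read from the log2 response in ros1 minus that in WT. The difference was -0.09 for ALD1, -1.34 for FMO1, -2.40 for UGT76B1 and 1.33 for SARD4. For ALD1, FMO1 and UGT76B1 its size and sign depended on the value added to the FPKM. With 1 in place of 0.1 it became 1.62 for ALD1, 0.53 for FMO1 and 0.29 for UGT76B1, and with nothing added it was -2.37, -2.02 and -4.82. The low WT control levels of these genes allow no firm statement on which genotype responded more. The difference for SARD4, which is well above that limit in all groups, lay between 1.11 and 1.44 under the pseudocounts and centrings tried. In ros1 IM as a final level, FMO1 reached 150 FPKM against 20.7 in WT IM.

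The proportions of the pathway's transcripts differed between the groups. SARD4 made up 99.5% of the summed FPKM of the 4 genes in WT control, 57.1% in WT IM, 19.0% in ros1 control and 2.96% in ros1 IM. In WT control there was 257 times as much SARD4 as FMO1 per length of transcript, and in ros1 IM there was 21.4 times as much FMO1 as SARD4. SARD4 was the most abundant of the 4 in both WT groups, stood above ALD1 alone in ros1 control and was the least abundant in ros1 IM. In contrast, the ratio of FMO1 to ALD1 stayed between 6.35 and 7.39 over the 4 groups, although both levels differed by orders of magnitude, and in WT control it rests on 8 fragments and 1. FMO1 exceeded UGT76B1 7.0-fold in WT control, 3.62-fold in WT IM and 2.52-fold in ros1 IM, while in ros1 control UGT76B1 exceeded FMO1 1.42-fold. The WT control ratio of FMO1 to UGT76B1 likewise rests on 8 fragments and 1, and that of SARD4 to FMO1 on 8 fragments of FMO1.

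**Figure D3:**
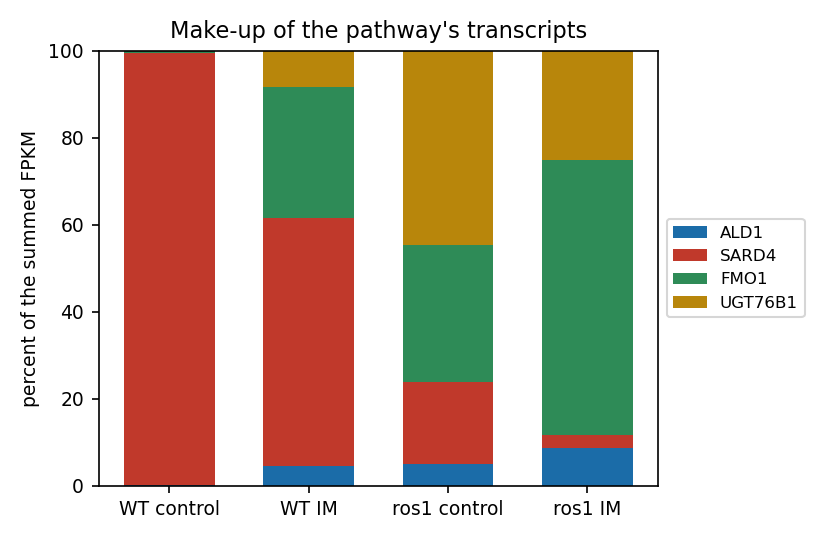
Share of each gene in the summed FPKM of the 4 pathway genes (percent, stacked bars) in the 4 groups, from pooled values without error bars. SARD4 fills 99.5% of the bar in WT control and 2.96% in ros1 IM, where FMO1 fills most of it.

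As a check of the samples, ROS1 was at 25.0 FPKM in WT control, 16.7 in WT IM, 19.0 in ros1 control and 4.08 in ros1 IM. The untreated line thus kept most of its transcript, with a 1.32-fold difference between the control groups. The ROS1 levels by which the authors describe a knock-down equal those of WT IM and ros1 IM. With the T-DNA in the 5′-UTR, reads over the rest of the gene do not check the label. The rosette leaf markers RBCS1A, LHCB1.3, RCA and LHCB2.1 summed to 47318 FPKM in WT control and 45638 in ros1 control, but to 10802 in WT IM and 1361 in ros1 IM. Their lower levels went with the higher levels of ALD1, FMO1 and UGT76B1 under herbicide, and its part in those ratios was not tested. The leaf markers did not separate the control groups in the same way, since 3 of them were within 2-fold there and LHCB2.1 was lower in ros1 control. Of 3 root markers, EXPA7 was at 0 in the 3 groups with a value, and the highest value of any was 0.232 FPKM. Of 4 flower markers, SEP3 was highest at 1.65 FPKM in ros1 IM, and AP3 and PI were at 0 in ros1 control. The reference genes GAPC2 and UBC28 had a mean log2 ratio of 0.00 between WT IM and WT control and of -0.44 between ros1 control and WT control.

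The neighbouring genes on the chromosome shared the direction of the pathway genes in some comparisons and not in others. They were chosen by position after the values of the pathway genes were seen. AT5G52820, 625 bases downstream of SARD4, was at 28.2 FPKM in WT control and 28.9 in ros1 control, and AT5G52800, which overlaps its start, was at 1.28 and 1.69. The lower SARD4 level in ros1 was thus not found at either neighbour in the untreated plants. AT1G19240, which ends 29 bases from FMO1, was at 14.9 FPKM in WT control, 31.8 in WT IM, 16.0 in ros1 control and 20.0 in ros1 IM. It was past 2-fold in the direction of FMO1 in WT IM against WT control, with a log2 ratio of 1.09, and in no other comparison. PIRL9, the expressed neighbour of UGT76B1, was at 17.5 FPKM in WT control, 17.1 in WT IM, 15.1 in ros1 control and 45.5 in ros1 IM. It was thus past 2-fold in the direction of UGT76B1 in both comparisons of ros1 IM, with log2 ratios of 1.59 against ros1 control and 1.41 against WT IM, and not in the others. On the far side of ALD1, at a distance of 11063 bases, SERK5 was at 3.03 FPKM in WT control and 0.0183 in ros1 control, while XYP2, at 1822 bases, was at 38.2 and 29.7.

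Regulators of the pathway were counted next, from a list of 22 genes. In WT IM against WT control 3 were higher, where 14.4% of all genes were, and 1 was lower, where 18.4% of all genes were, so the share of higher regulators was near that of all genes. The list's median log2 ratio was 0.13. In ros1 IM against ros1 control 7 of 19 with values were higher and 2 were lower, against 20.5% and 26.4% of all genes, with a median of 0.60. Between the untreated genotypes 5 were higher in ros1 and none was lower, against 6.30% and 10.3% of all genes, with a median of 0.30, and between the treated genotypes 9 of 19 were higher in ros1 and none was lower, against 13.1% and 22.6%, with a median of 0.90. The medians over all genes in these comparisons were 0.01, 0.12, 0.01 and 0.02.

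CBP60G, an activator of ALD1 and FMO1 transcription, was at 8.87 FPKM in WT control, 20.9 in WT IM, 23.0 in ros1 control and 58.8 in ros1 IM. SARD1, its close relative, was at 15.0, 24.5, 29.9 and 72.8 FPKM in the same order. Both thus had the pooled rank order of UGT76B1, whose middle groups were within counting error of each other. The ratios of CBP60G and SARD1 were much smaller than those of ALD1, FMO1 and UGT76B1. TGA1, a bZIP factor of salicylic acid signalling, was at 7.19 FPKM in WT control and 16.5 in WT IM. WRKY33, which acts on ALD1 in immunity, was at 22.8 FPKM in ros1 control and 137 in ros1 IM. PAD4, a lipase-like immune regulator, was higher between the untreated genotypes, at 14.3 FPKM in WT control and 47.4 in ros1 control, as was its partner SAG101, at 8.45 and 18.4. The helper immune receptor ADR1 stood at 13.4 FPKM in WT IM against 6.19 in WT control. NDR1, a membrane protein of immune receptor signalling, was lower after herbicide in both genotypes, with 24.6 and 10.1 FPKM in WT and 23.2 and 6.15 in ros1. WRKY70 and WRKY54, which act on salicylic acid responses in both directions, were at 302 and 88.0 FPKM in ros1 control against 162 and 31.4 in WT control. Only WRKY54 was past 2-fold there. WRKY70 was past 2-fold between the treated genotypes alone, at 88.1 FPKM in WT IM and 323 in ros1 IM. NPR3, a salicylic acid receptor, was at 14.3 FPKM in WT IM and 40.8 in ros1 IM.

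Lysine is the substrate of ALD1, and 13 genes of its synthesis, breakdown and transport were counted. In WT IM against WT control 2 were higher and 1 was lower, against 14.4% and 18.4% of all genes, with a median log2 ratio of -0.06. In ros1 IM against ros1 control 2 were higher and 4 were lower, against 20.5% and 26.4% of all genes, with a median of 0.04. The list as a whole was thus near all genes in both responses. LKR-SDH, the bifunctional enzyme that degrades lysine by the competing saccharopine route, was at 3.71 FPKM in WT control, 33.4 in WT IM, 4.72 in ros1 control and 78.1 in ros1 IM. It therefore was higher with herbicide in both genotypes, but unlike the NHP genes nearly equal between the untreated genotypes. LHT1, an amino acid transporter, was at 15.1, 40.3, 78.9 and 152 FPKM in these groups. Between the untreated genotypes it was the 1 gene of 13 that was higher in ros1, and 0 were lower. Of all genes, 6.30% were higher and 10.3% were lower, so the share of higher genes was near that of all genes. The list's median log2 ratio was 0.09 there. AK-LYS3, an aspartate kinase, was at 154 FPKM in ros1 control and 21.8 in ros1 IM, and AK-LYS2 was at 74.9 and 22.3, while AK-LYS1 was at 31.7 in WT IM and 74.2 in ros1 IM. DHDPR1, a dihydrodipicolinate reductase, was at 56.7 FPKM in WT control and 21.8 in WT IM, and DHDPR2 was at 5.17 in ros1 control and 1.47 in ros1 IM. Between the treated genotypes 3 genes were higher and 2 were lower in ros1, against 13.1% and 22.6% of all genes, with a median of 0.25.

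Salicylic acid synthesis and turnover, which shares UGT76B1 with the NHP pathway, was covered by 9 genes. In WT IM against WT control 5 were higher and 1 was lower, against 14.4% and 18.4% of all genes, with a median log2 ratio of 1.47. Between the untreated genotypes 5 of the 8 that reached 1 FPKM were higher and 1 was lower in ros1, against 6.30% and 10.3% of all genes, with a median of 2.28. ICS1, the isochorismate synthase, was at 4.31 FPKM in WT control, 12.1 in WT IM, 27.1 in ros1 control and 48.8 in ros1 IM. PBS3, which couples isochorismate to glutamate, was at 2.47, 26.0, 17.3 and 159 FPKM, an order like that of ALD1 and FMO1. EDS5, the isochorismate transporter, was at 15.9 FPKM in ros1 control and 86.9 in ros1 IM. UGT74F2, another glucosyltransferase of salicylic acid, was at 5.29 FPKM in WT control, 33.1 in WT IM, 1.76 in ros1 control and 166 in ros1 IM. It differed from UGT76B1 in the untreated ros1 plants, where it stood below WT control. DMR6, a salicylic acid hydroxylase, was at 27.0 FPKM in WT control and 203 in ros1 control, but at 76.4 in ros1 IM, and S3H was at 0.517 in WT control, 5.79 in WT IM, 6.33 in ros1 control and 5.97 in ros1 IM. BSMT1, a salicylic acid methyltransferase, was at 0.0467 FPKM in WT control and 1.18 in WT IM. In ros1 IM against ros1 control 3 of 8 genes were higher and 1 was lower, against 20.5% and 26.4% of all genes. Between the treated genotypes 4 of 9 were higher in ros1 and none was lower, against 13.1% and 22.6%.

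Genes of the signalling and response of systemic acquired resistance were counted from a list of 12. Whether they act downstream of NHP was not tested. In WT IM against WT control 8 were higher and 1 was lower, against 14.4% and 18.4% of all genes, with a median log2 ratio of 1.86. In ros1 IM against ros1 control 6 were higher and 4 were lower, against 20.5% and 26.4%, with a median of 0.97. Between the untreated genotypes 9 were higher in ros1 and 1 was lower, against 6.30% and 10.3%, with a median of 3.58. Between the treated ones 8 were higher and 3 were lower, against 13.1% and 22.6%, with a median of 1.93. PR1, the usual marker of salicylic acid responses, was at 8.41 FPKM in WT control, 688 in WT IM, 2364 in ros1 control and 5111 in ros1 IM. PR2, a glucanase, was at 11.8, 304, 722 and 1281 FPKM. PR5, a thaumatin-like protein, was at 62.8, 178, 741 and 2158 FPKM. In these PR genes untreated ros1 stood above treated WT, whereas for UGT76B1 the order of these groups was within counting error. SAG13, a senescence-associated gene, was at 2.25, 190, 36.3 and 1098 FPKM and so had the order of FMO1. GRX480, a glutaredoxin, was at 21.0 FPKM in ros1 control against 1.25 in WT control. LLP1, a lectin-like gene needed for systemic signalling, stood the other way, at 302 FPKM in WT control, 25.0 in WT IM, 121 in ros1 control and 5.10 in ros1 IM. DIR1, a lipid transfer protein of systemic signalling, was at 54.3 FPKM in WT control and 65.5 in WT IM. In ros1 the DIR1 level was 80.7 FPKM without herbicide and 10.5 with it. AZI1 was at 3.49 FPKM in WT control, 75.3 in WT IM, 1.92 in ros1 control and 15.3 in ros1 IM. Among treated plants, WT thus exceeded ros1 in DIR1 and AZI1, opposite to ALD1, FMO1 and UGT76B1.

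**Figure D4:**
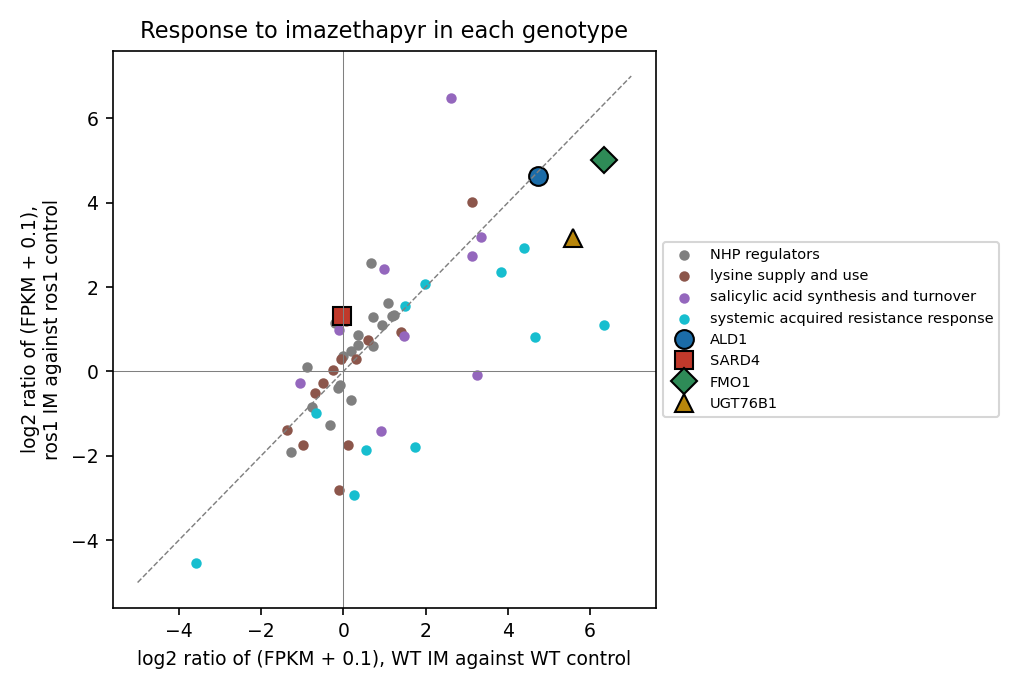
Log2 ratio of (FPKM + 0.1) after imazethapyr in ros1 (vertical axis) against that in WT (horizontal axis) for the 4 pathway genes (large symbols) and 4 lists of related genes (small points), with equal responses on the dashed line. ALD1 lies next to that line, FMO1 and UGT76B1 lie below it, and SARD4 lies above it at -0.02 in WT and 1.31 in ros1.

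Sequence relatives of FMO1 and UGT76B1 were compared with them. Of 6 FMO relatives, 5 reached 1 FPKM, and the close relative AT5G45180 was at 0 in both WT groups and at 0.315 in ros1 control. Between the untreated genotypes 3 of the 5 glucosinolate S-oxygenases were lower in ros1 and none was higher, against 10.3% and 6.30% of all genes, whereas FMO1 was higher. FMO-GS-OX1 was at 55.1 FPKM in ros1 control and 4.32 in ros1 IM, and FMO-GS-OX4 was at 4.52 in ros1 control against 13.7 in WT control. FMO-GS-OX3 was at 111 FPKM in WT control, 76.2 in WT IM, 5.73 in ros1 control and 0.482 in ros1 IM, so that it resembled SARD4 in its difference between genotypes. Of 18 UGT76 relatives, 10 reached 1 FPKM in WT IM against WT control, where 3 were higher and 3 were lower, against 14.4% and 18.4% of all genes. In ros1 IM against ros1 control 7 of 11 were higher, against 20.5%, and 3 were lower, near the 26.4% of all genes. Of those higher, UGT76D1, UGT76E3, UGT76E4, UGT76E6 and UGT76E12 were below 1 FPKM in ros1 control and passed the floor only through ros1 IM. With a floor of 5 FPKM, 2 relatives were higher and 2 were lower, so the count of higher relatives rests largely on the floor. Between the untreated genotypes none was higher and 4 of 9 were lower in ros1, against 6.30% and 10.3%. UGT76F2 was at 15.2 FPKM in WT control, 0.986 in WT IM, 7.18 in ros1 control and 0.317 in ros1 IM, and UGT76D1 was at 0.0257 in ros1 control and 3.30 in ros1 IM. UGT76E12 was at 0.215 FPKM in WT control, 7.11 in WT IM and 41.5 in ros1 IM and was at 4.87e-05 in ros1 control, where UGT76B1 stood at 6.49. How the authors' counting divided reads between similar genes of these families was not tested, so the values of single relatives are uncertain.

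Across all 16841 genes with 4 values that reached 1 FPKM in any group, 272 or 1.62% were at least 2-fold higher in all 4 comparisons. FMO1 and UGT76B1 were among them, and ALD1 was not, because it stayed below 1 FPKM in both control groups. The 5 genes with the nearest pattern to each enzyme were found by the distance between log2(FPKM + 0.1) values centred over the 4 groups. For FMO1 they were SAG13, MT1B, AT3G22600, SBT3.3 and AT3G46080, at distances from 0.28 to 0.74. For ALD1 they were NAC047, ATGLR1.2, CYP71A12, UGT73C1 and PRX52, at 0.44 to 0.59. For UGT76B1 they were AT1G21525, AT3G13433, GSTL1, AT1G36622 and AT3G13610, at 0.27 to 1.23. FMO1 was the 84th nearest gene to ALD1, with a Pearson correlation of 0.995 over the 4 groups, and UGT76B1 was the 45th nearest to FMO1, with a correlation of 0.966. All 4 groups enter these values, and 4 points give no more than a description.

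The genes nearest to SARD4 were AT5G43620, AT1G66650, AT1G31430, HSD3 and AT4G16840, at distances from 0.13 to 0.60. Each of them, like SARD4, was nearly equal in both WT groups and much lower in both ros1 groups, for instance AT4G16840 at 9.93 FPKM in WT control, 9.32 in WT IM, 0.469 in ros1 control and 0.949 in ros1 IM. The others were less expressed, at 1.55 to 3.70 FPKM in WT control and 0.0305 to 0.143 in ros1 control. At such levels the added 0.1 weighs on the distances. Genes that were lower in ros1 by 5-fold or more, both with and without herbicide, numbered 271, or 1.61% of those with 4 values, and SARD4 belonged to them. Of these, 180 lay within 2-fold between the WT groups, and 6 of the 180 were also at least 2-fold higher in ros1 IM than in ros1 control, as SARD4 was. The remaining distances of SARD4 to ALD1, FMO1 and UGT76B1 were 7.14, 8.45 and 8.75, and 16788 of 16840 genes were as near to SARD4 as FMO1 was, or nearer, FMO1 included.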

How the data were processed

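The 8 RNA-seq libraries came from whole rosettes, with 2 in each of the 4 groups. Per the submitters' processing notes, reads were checked with FastQC 0.10.1, aligned to TAIR10 with TopHat2 and Bowtie2, and quantified by Cufflinks, and versions of the last 3 tools are not given in the sources used here. The authors report that a smaller share of reads aligned for ros1 than for WT. Its part in the ratios between genotypes was not tested. The deposited FPKM values were estimated by the authors for each group over both libraries, and the TruSeq RNA kit that was used does not mark strand. The tables also hold the authors' fold changes, test statistics, p-values, q-values and verdicts, which were not used. FPKM was read from 7 tables, in which 157256 repeated values were equal, with 0 unequal. Values were present for 34133 genes in both control groups, 32920 in WT IM and 17284 in ros1 IM, and the genes without a ros1 IM value were not analysed in that group.

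Ratios were computed on log2(FPKM + 0.1), with a threshold of 2-fold and an FPKM of at least 1 in either group, in Python 3.11.15 (pandas 2.3.3, numpy 2.4.6, scipy 1.17.1). The calls were first run on simulated data, with changes planted only in genes well above the WT control levels of ALD1, FMO1 and UGT76B1. That check therefore does not cover such low values or the spread between libraries. The precision of low values was read from steps of FPKM times effective length (exon length inside the file's span less a mean fragment of 200 bases), over 12726 single-transcript genes longer than 700 bases, with exact Poisson and Clopper-Pearson intervals at 95%. In steps, 1 fragment was worth 28.6 or 31.5 in WT control, 23.6 or 24.0 in WT IM and 32.6 or 39.2 in ros1 control. Sequences and positions are from RefSeq (TAIR10.1); 31416 gene identifiers matched, 15083 with the same start or end as in the files. The rule for named genes took the 4 enzymes, up to 4 genes of each list and comparison past the threshold with the largest log2 ratio, genes of lists of 5 or fewer, ROS1, the reference genes and the 5 nearest in pattern. Some UGT76 relatives and marker genes that it takes are given as counts only. AT5G45180, EDS1 and the neighbouring genes are named beside the rule, a choice made with their values known. The pathway genes and the lists were chosen with earlier results of these data known. Alternatives were other thresholds, floors, pseudocounts and centrings, a correlation for the nearest genes and a shorter promoter window.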

Additional observations from a re-analysis of the deposited data

Results flagged for a closer look

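AED1, an aspartyl protease of systemic acquired resistance, and FMO-GS-OX2, a relative of FMO1, were at least 2-fold higher after imazethapyr in WT and at least 2-fold lower in ros1, the opposite directions in the genotypes. AED1 was at 19.1 FPKM in WT control and 63.8 in WT IM, but at 458 in ros1 control and 133 in ros1 IM, and its log2 response in ros1 minus that in WT was -3.51. FMO-GS-OX2 was at 13.1 FPKM in WT control and 33.6 in WT IM, but at 5.95 in ros1 control and 2.03 in ros1 IM, with a difference of -2.86. These differences come from pooled values and were not tested. None of the 4 NHP pathway genes had opposite responses past 2-fold. The share of all genes with opposite responses is not given here, so neither result can be read as a trait of these genes.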

How the results depend on the processing

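No paired analysis was possible because the tables hold 1 pooled value for each group, and no library could be left out for the same reason. Of 64 log2 ratios of the 4 enzymes under other pseudocounts or centrings, 0 changed sign among those past 2-fold, and 13 moved by more than 1.5-fold, all through the pseudocount and all in ALD1, FMO1 or UGT76B1. Without a pseudocount the difference between the genotypes in response was -2.37 for ALD1, -2.02 for FMO1 and -4.82 for UGT76B1. With a pseudocount of 1 it was 1.62 for ALD1, 0.53 for FMO1 and 0.29 for UGT76B1, so that the sign turned in all 3, from -0.09, -1.34 and -2.40. With a floor of 5 FPKM, 1 pathway gene in place of 2 was higher in ros1 control than in WT control. By correlation over the 4 groups, 2 of the 5 nearest genes of SARD4 were shared with those by distance, and 0 of those of ALD1, FMO1 and UGT76B1. The motif matches were the same in the 250 bases before the start.
The median log2 ratio of genes at 1 FPKM or more in both groups was at most 0.16, in ros1 IM against ros1 control, and GAPC2 and UBC28 had mean log2 ratios of -0.11 there, -0.44 between the untreated genotypes and -0.55 between the treated ones. Among the counts of all 7 lists, a threshold of 4-fold moved 22 by more than 1.5-fold and one of 1.5-fold moved 16.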
